A study of Homo sapiens with 24 samples.

Results

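Immediate early genes were followed through RNA-seq libraries of 2 human cell lines in which the noncoding RNA snaR-A, the splicing factor SF3B2 or a control was overexpressed. The 10 genes FOS, FOSB, JUN, JUNB, EGR1, EGR2, EGR3, IER2, DUSP1 and MYC were taken from a list of names, chosen with earlier results of these data known. Each matched an Ensembl gene in the table of 60236 genes. HEK293T is a line of human embryonic kidney origin and A549 a line grown from a lung adenocarcinoma. Each line received, by lipid transfection, a plasmid with snaR-A or a scrambled snaR-A sequence (scramble) behind a U6 promoter, or a pcDNA3.1 plasmid for eGFP (GFP in the labels) or SF3B2, and was collected after 48 h. SF3B2 is a protein of the U2 snRNP. Each of the 8 groups (line by plasmid) held 3 libraries, which the study's methods describe as biological replicates handled on the same day, for 24 libraries in all. The labels only number them, so p-values measure the spread between these libraries. Because snaR-A and scramble share their promoter, and SF3B2 and eGFP share theirs, an effect of the insert is read within each of these pairs. In eGFP or SF3B2 against scramble, the promoter, the backbone and the insert changed together and cannot be told apart.

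Immediate early genes are transcribed within minutes of a growth factor, stress or calcium signal, without new protein synthesis. MAP kinases and the cyclic AMP pathway switch on factors already bound at their promoters, among them serum response factor (SRF) with its ELK partners and CREB, and the mRNAs are then rapidly degraded. The encoded proteins are mostly transcription factors, which pass the signal on to later genes, or phosphatases that end it, and FOS, JUN and MYC are also known as oncogenes.

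Promoter stretches with the letters that these signals are read through are printed here, since such inputs are what the genes are known to share. RefSeq windows on GRCh38.p14, running from 250 bases before to 50 after a start, were held for 8 of the 10 genes, all but EGR3 and MYC, with 3 starts for EGR2. Capitals mark the CArG box, the SRF site, in EGR1 and EGR2, the full cyclic AMP response element TGACGTCA in DUSP1, and its core TGACG, on either strand, in the others. TGACG overlaps TGACGTCA.
EGR1, chr5:138465354-138465425, plus strand: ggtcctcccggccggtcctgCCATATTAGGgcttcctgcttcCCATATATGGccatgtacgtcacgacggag
EGR2, chr10:62816408-62816457, minus strand: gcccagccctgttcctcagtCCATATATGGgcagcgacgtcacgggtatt
DUSP1, chr5:172771293-172771340, minus strand: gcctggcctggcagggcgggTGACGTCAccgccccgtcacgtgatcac
FOS, chr14:75278739-75278793, plus strand: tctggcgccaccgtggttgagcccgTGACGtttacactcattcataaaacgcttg
FOSB, chr19:45467911-45467965, plus strand: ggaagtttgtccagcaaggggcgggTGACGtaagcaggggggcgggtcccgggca
JUN, chr1:58784141-58784195, minus strand: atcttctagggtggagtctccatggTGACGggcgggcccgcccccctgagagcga
JUNB, chr19:12791324-12791378, plus strand: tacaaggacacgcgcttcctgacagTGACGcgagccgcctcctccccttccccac
IER2, chr19:13150246-13150300, plus strand: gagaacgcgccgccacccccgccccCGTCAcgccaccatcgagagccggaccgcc

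All 8 genes with a window held TGACG, which 24.553% of all 35116 windows of this length held. The CArG box stood at bases -105 and -83 of EGR1 and at base -71 of EGR2, counted from the start of that window, and in 1.293% of all windows. TGACGTCA was found in DUSP1 alone among the 8 and in 1.848% of all windows. The E-box CACGTG, read by MYC with MAX, was present in DUSP1 and EGR2 and in 7.256% of all windows, and the EGR motif GCGNGGGCG in EGR1 and EGR2 and in 9.434%. In EGR2 the CArG box and these other motifs lay in windows of different starts. The AP-1 motif TGANTCA was in no window of these 8 genes and in 7.709% of all. These matches describe the letters only and are no evidence of binding. Bases further than 250 before a start were not searched, so a motif missing here may lie outside the window.

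The 10 genes lie on chromosomes 14 (FOS), 19 (FOSB, JUNB and IER2), 1 (JUN), 5 (EGR1 and DUSP1), 10 (EGR2) and 8 (EGR3 and MYC). Their canonical transcripts have between 1 exon, in JUN and JUNB, and 4 exons, in FOS, FOSB and DUSP1, and measure 1830 to 4514 bases in the GENCODE 44 annotation. At most 3.15% of the short sequence words of a member, in EGR2, recurred in another gene. FOSB, JUNB, EGR3, IER2, DUSP1 and MYC overlap genes on the opposite strand, which are ERCC1 for FOSB, HOOK2 for JUNB and CASC11 for MYC, and EGR2 overlaps a gene model on its own strand. Their estimated counts may hold a share of reads from these neighbours. Every member passed the low-count filter in every comparison, and the lowest estimate in a library was 22.6 counts, for EGR3 in A549.

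Library totals lay between 195186194 and 260878268 estimated counts, and a count of 3 corresponds to 0.0115 to 0.0154 CPM, the count scaled to the library total. All levels are given in CPM after TMM scaling over the 24 libraries. SF3B2 itself stood at 37671, 29026 and 24055 CPM in the HEK293T SF3B2 libraries and at 48888, 46652 and 45567 CPM in the A549 ones, while the other libraries held 293 to 372 CPM except A549 scramble replicate 3, with 8773 CPM. All 8 A549 marker genes were higher in every A549 library than in any HEK293T library. Their summed level was 9731 to 12624 CPM in A549 and 1.29 to 2.05 CPM in 10 HEK293T libraries, but 345 CPM in HEK293T eGFP replicate 3, which is 3.01% of the A549 mean, and 10.5 CPM in HEK293T SF3B2 replicate 3. Among 8 HEK293T markers, 7 were higher in every HEK293T library, and their sum was 742 to 810 CPM with scramble and 449 to 632 CPM with the other plasmids. A549 snaR-A replicate 3 has label fields that name both lines, and its A549 marker sum of 11237 CPM lay within the A549 range. Counts of members called that rest on these libraries are given with and without them.

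**Figure D1:**
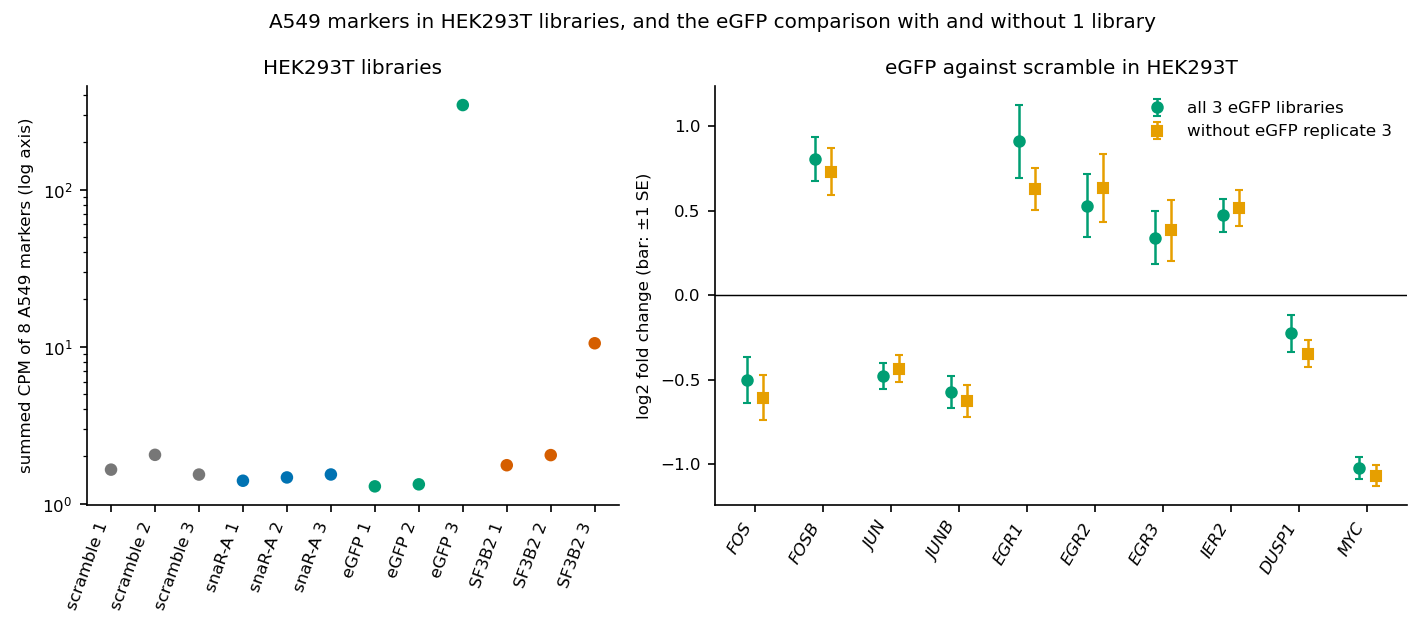
Left, summed CPM of 8 A549 marker genes on a log axis in the 12 HEK293T libraries, with 345 CPM in eGFP replicate 3 and 10.5 CPM in SF3B2 replicate 3 above the others. Right, log2 fold change (± 1 SE) of each gene for eGFP against scramble in HEK293T with all 3 eGFP libraries (circles) and without eGFP replicate 3 (squares), where EGR1 moves from 0.91 to 0.63 and no gene changes sign.

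In HEK293T cells, immediate early genes did not move as a block. FOS, JUN, JUNB, DUSP1 and MYC were lower with snaR-A than with scramble, whereas FOSB, IER2 and the EGR genes were not called. With eGFP and with SF3B2, JUN, JUNB and MYC were also lower than with scramble, while FOSB, EGR1 and EGR2 were higher. The EGR2 calls were lost in most fits with a library left out. Between 16.8% and 25.8% of all genes were called in each direction in these comparisons.

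FOS and FOSB encode FOS-type subunits of AP-1, a dimeric factor in which these need a JUN-type partner to bind DNA well. In HEK293T cells FOS stood at 4.13, 3.37 and 3.40 CPM with scramble, 2.80, 1.93 and 2.38 with snaR-A, 2.47, 2.29 and 2.94 with eGFP and 2.93, 2.59 and 2.88 with SF3B2. The 3 scramble libraries were above the 9 others, which overlapped among themselves. Against scramble, the log2 fold change of FOS was -0.61 ± 0.15 (SE) with snaR-A (adjusted p = 0.0134) and -0.50 ± 0.14 with eGFP (adjusted p = 0.0192), by edgeR's quasi-likelihood test with Benjamini-Hochberg adjustment over all genes, as everywhere below. With SF3B2 it was -0.37 ± 0.12, which did not pass (adjusted p = 0.0522). The calls depended on single libraries. Without scramble replicate 1, the library with the highest FOS level, the adjusted p became 0.0517 for snaR-A and 0.0700 for eGFP, and the eGFP call held in 3 of the 6 fits that left out a library. In bulk RNA, a lower level in each cell and fewer cells with the transcript cannot be told apart.

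FOSB took another course. It stood at 2.43, 1.88 and 2.15 CPM with scramble, 2.14, 2.05 and 2.23 with snaR-A, 3.604, 3.54 and 4.13 with eGFP and 5.00, 3.79 and 3.61 with SF3B2. Every eGFP and SF3B2 library was above every scramble and snaR-A library, and within each of these pairs of plasmids the libraries overlapped. FOSB was 1.75-fold higher with eGFP (log2 0.80 ± 0.13, adjusted p = 0.00198) and 1.93-fold higher with SF3B2 (log2 0.95 ± 0.16, adjusted p = 0.00540) than with scramble, in all 6 fits with a library left out. With snaR-A its log2 fold change was 0.0019 ± 0.12 (adjusted p = 0.992).

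JUN and JUNB encode JUN-type partners, and JUNB is a weaker activator than JUN. JUN, per kilobase the most abundant member in this line, stood at 278, 270.1 and 236 CPM with scramble, 182, 163 and 173 with snaR-A, 187, 198 and 176 with eGFP and 213, 192 and 182 with SF3B2. The scramble libraries were the 3 highest, and the other groups overlapped with their neighbours. JUN was 1.503-fold lower with snaR-A (log2 -0.59 ± 0.070, adjusted p = 7.17e-04), 1.40-fold lower with eGFP (log2 -0.48 ± 0.077, adjusted p = 0.00191) and 1.33-fold lower with SF3B2 (log2 -0.41 ± 0.089, adjusted p = 0.0118). The first pair of calls held in all 6 fits with a library left out, and the SF3B2 call in 4 of 6, with an adjusted p of 0.0579 without scramble replicate 1.

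JUNB stood at 10.7, 9.32 and 9.16 CPM with scramble, 7.89, 6.72 and 7.23 with snaR-A, 6.35, 6.22 and 7.04 with eGFP and 7.11, 6.06 and 6.81 with SF3B2. Here too the 3 scramble libraries were the highest of the 12. The log2 fold change was -0.41 ± 0.088 with snaR-A (adjusted p = 0.00800), -0.57 ± 0.095 with eGFP (adjusted p = 0.00217) and -0.54 ± 0.10 with SF3B2 (adjusted p = 0.00685), and all 3 calls held in each fit with a library left out.

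**Figure D2:**
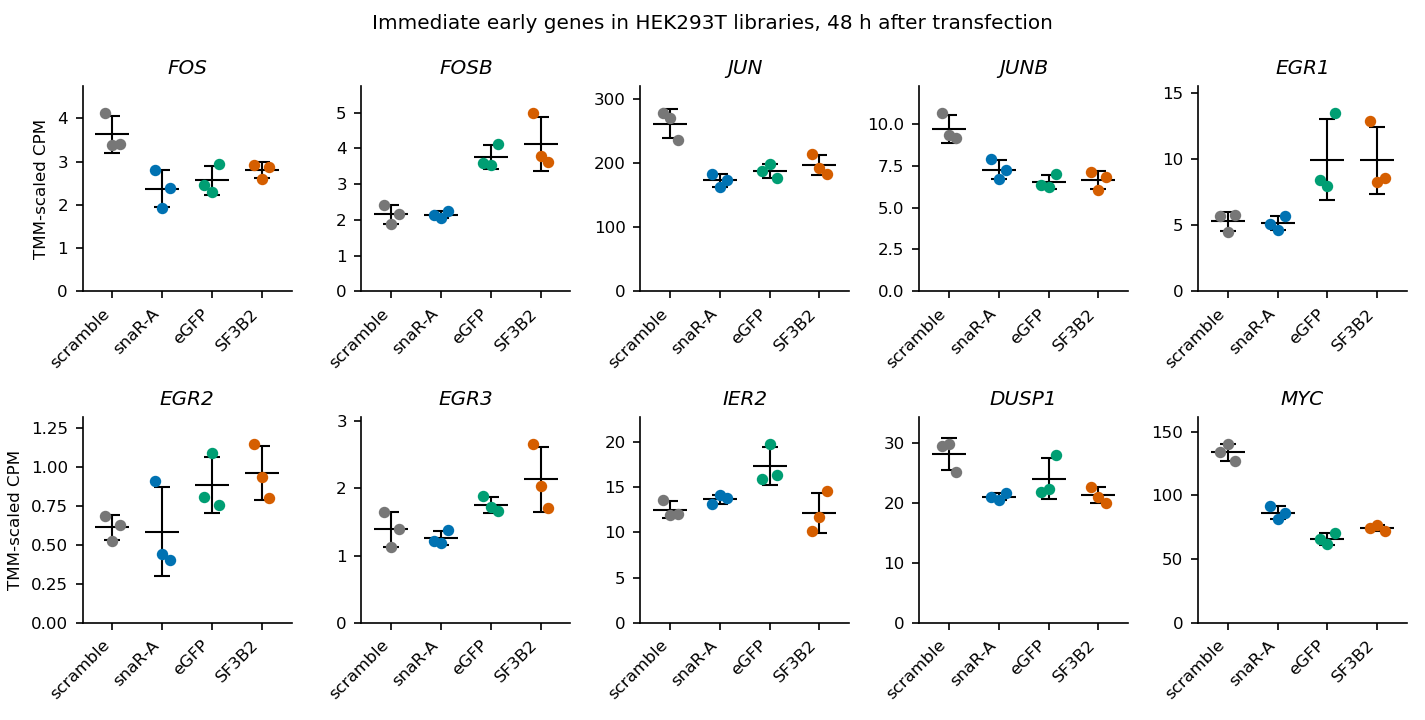
TMM-scaled CPM, on linear axes from 0 that differ between genes, of the 10 genes in the 12 HEK293T libraries, with 1 point per library coloured by plasmid and black bars for the mean ± SD of 3. FOS, JUN, JUNB and MYC are highest in the scramble libraries, and FOSB, EGR1 and EGR3 are higher in all eGFP and SF3B2 libraries than in all scramble and snaR-A libraries.

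EGR1, EGR2 and EGR3 encode zinc-finger factors that bind the same GC-rich motif and are induced through SRF. EGR1 stood at 5.68, 4.47 and 5.73 CPM with scramble, 5.12, 4.64 and 5.67 with snaR-A, 8.38, 7.97 and 13.5 with eGFP and 12.8, 8.28 and 8.58 with SF3B2. All eGFP and SF3B2 libraries were above all scramble and snaR-A libraries, and eGFP replicate 3, the library with A549 marker RNA, held the highest value. EGR1 was 1.88-fold higher with eGFP (log2 0.91 ± 0.21, adjusted p = 0.0101) and 1.88-fold higher with SF3B2 (log2 0.91 ± 0.19, adjusted p = 0.00989) than with scramble. Without eGFP replicate 3 the eGFP value was 0.63 and remained called (adjusted p = 0.00500). With snaR-A the log2 fold change was -0.033 ± 0.12 (adjusted p = 0.856).

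EGR2 and EGR3 were, per kilobase, the scarcest members in both lines. EGR2 stood at 0.685, 0.525 and 0.624 CPM with scramble, 0.910, 0.442 and 0.401 with snaR-A, 0.806, 1.09 and 0.754 with eGFP and 1.14, 0.932 and 0.799 with SF3B2. The eGFP and SF3B2 libraries were above the scramble libraries, but snaR-A replicate 1 lay among them. Its log2 fold change against scramble was 0.53 ± 0.19 with eGFP (adjusted p = 0.0476) and 0.65 ± 0.19 with SF3B2 (adjusted p = 0.0309), and each call held in 1 of 6 fits with a library left out. EGR3 stood at 1.64, 1.13 and 1.40 CPM with scramble, 1.22, 1.18 and 1.38 with snaR-A, 1.89, 1.73 and 1.66 with eGFP and 2.66, 2.03 and 1.71 with SF3B2, with the lowest of the 6 eGFP and SF3B2 libraries just above the highest of the other 6. It did not pass against scramble with eGFP (log2 0.34 ± 0.16, adjusted p = 0.108) or with SF3B2 (log2 0.63 ± 0.21, adjusted p = 0.0504), although without SF3B2 replicate 3 the latter was called at 0.76 (adjusted p = 0.0220).

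IER2 encodes a nuclear protein induced with the AP-1 genes. Its level was 13.6, 11.99 and 12.01 CPM with scramble, 13.2, 14.2 and 13.8 with snaR-A, 15.97, 19.8 and 16.4 with eGFP and 10.2, 11.7 and 14.6 with SF3B2. The eGFP libraries were above all others, and the other 3 groups overlapped. IER2 was 1.39-fold higher with eGFP than with scramble (log2 0.47 ± 0.099, adjusted p = 0.00597), and was not called with snaR-A (log2 0.14 ± 0.066, adjusted p = 0.135) or SF3B2 (log2 -0.037 ± 0.13, adjusted p = 0.851).

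DUSP1 encodes a dual-specificity phosphatase that inactivates JNK, p38 and ERK, and so closes the pathway that induces it. It stood at 29.6, 29.8 and 25.1 CPM with scramble, 21.0, 20.5 and 21.7 with snaR-A, 21.9, 22.3 and 28.0 with eGFP and 22.7, 21.1 and 20.1 with SF3B2. The snaR-A and SF3B2 libraries were below the scramble libraries, whereas eGFP replicate 3 reached the scramble range. DUSP1 was 1.33-fold lower with snaR-A (log2 -0.41 ± 0.067, adjusted p = 0.00246) and 1.32-fold lower with SF3B2 (log2 -0.40 ± 0.087, adjusted p = 0.0121). The SF3B2 call held in 3 of 6 fits with a library left out and had an adjusted p of 0.0603 without scramble replicate 1. With eGFP the log2 fold change was -0.23 ± 0.11 (adjusted p = 0.132), and -0.35 without eGFP replicate 3 (adjusted p = 0.00926).

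MYC, which binds E-boxes with MAX and drives ribosome production and growth, stood at 134, 140.1 and 127 CPM with scramble, 91.6, 81.5 and 86.5 with snaR-A, 65.5, 61.5 and 70.3 with eGFP and 74.8, 76.6 and 72.3 with SF3B2. No pair of neighbouring groups in the order scramble, snaR-A, SF3B2 and eGFP overlapped. The means were 134 ± 6.70 (SD, n = 3), 86.5 ± 5.08, 74.6 ± 2.17 and 65.8 ± 4.39 CPM in that order. MYC was 1.53-fold lower with snaR-A (log2 -0.62 ± 0.056, adjusted p = 3.36e-04), 1.79-fold lower with SF3B2 (log2 -0.84 ± 0.059, adjusted p = 5.83e-04) and 2.03-fold lower with eGFP (log2 -1.02 ± 0.066, adjusted p = 9.15e-05). The 3 comparisons share the scramble libraries, and each call held in every fit with a library left out. For a single gene the exact permutation test of 3 libraries against 3 cannot go below p = 0.1, which MYC reached in all 3.

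Counted together, 5 of 10 members were lower and 0 higher with snaR-A than with scramble in HEK293T. Of all 22667 genes tested, 18.5% were lower and 17.8% higher, and the median log2 fold change was -0.27 over the members and -0.0072 over all genes. With eGFP 4 members were higher and 4 lower, against 22.9% and 25.8% of all genes, and with SF3B2 3 were higher and 4 lower, against 16.8% and 17.5%. Without eGFP replicate 3 the eGFP counts were 4 higher and 5 lower, beside 5077 and 5735 of all 23259 genes. Without SF3B2 replicate 3 the SF3B2 counts were 4 and 4, beside 4357 and 4639 of all 23169 genes. The scramble libraries stood apart from the rest. All 3 were above the other 9 HEK293T libraries for FOS, JUN, JUNB and MYC and for 20.6% of the 12075 genes with a mean of at least 1 on the log2 CPM scale. The HEK293T marker sum was also highest there, and 4 of 8 of these markers were lower with snaR-A, 3 of 8 with eGFP and 2 of 8 with SF3B2. The part of this difference in the lower calls was not tested.

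**Figure D3:**
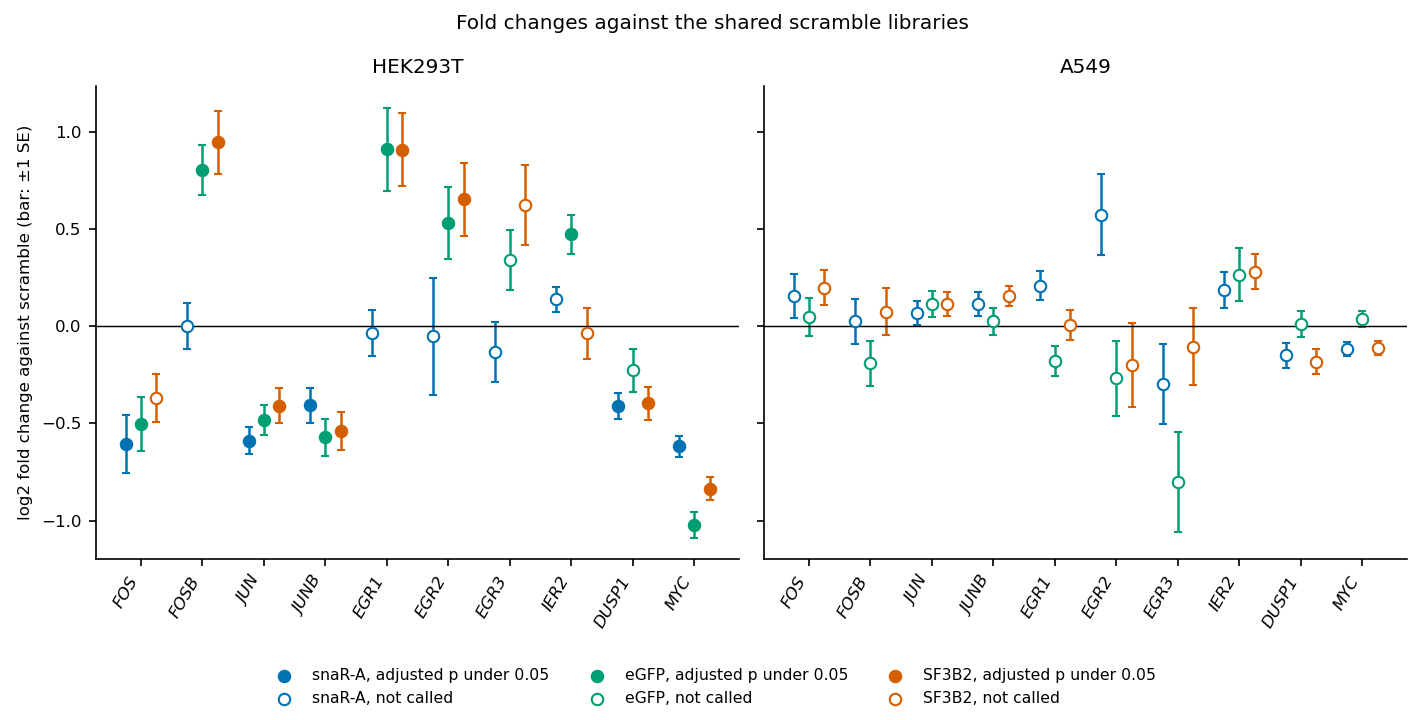
Log2 fold change (± 1 SE) of each gene against scramble in HEK293T (left) and A549 (right) for snaR-A, eGFP and SF3B2, with filled symbols where the adjusted p was under 0.05. In HEK293T, FOSB and EGR1 lie above 0 with eGFP and SF3B2 and MYC lies below 0 with all 3 plasmids. All A549 symbols are open, with A549 scramble replicate 3 included. All 3 plasmids share 1 set of scramble libraries in each line.

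Split by plasmid backbone, the 6 pcDNA3.1 libraries (eGFP and SF3B2) were above the 6 U6 libraries for FOSB, EGR1 and EGR3 in HEK293T. They were so for 6.29% of genes, and were below the U6 libraries for MYC, as for 10.4%. Both shares are of the 12075 genes with a mean of at least 1 on the log2 CPM scale. That set does not hold EGR2 or EGR3. FOSB ranged from 1.88 to 2.43 CPM in the U6 libraries and from 3.54 to 5.00 CPM in the pcDNA3.1 libraries, and EGR1 from 4.47 to 5.73 and from 7.97 to 13.5 CPM. In A549 none of the 10 genes separated in this way, and few genes did. There the pcDNA3.1 libraries were above the U6 libraries for 0.323% of genes and below them for 0.265%.

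SF3B2 against eGFP, the comparison with the backbone held constant, called 0 of 10 members in HEK293T by edgeR's quasi-likelihood test and 0 by its exactTest. It called 0.0398% of all genes higher and 0.133% lower. At an unadjusted p under 0.05 the members were 2, IER2 (log2 -0.53 ± 0.15, adjusted p = 0.142) and MYC (log2 0.17 ± 0.064, adjusted p = 0.207), and in both the groups did not overlap. Of all 22623 genes tested, 4904 were under that unadjusted p. DESeq2 called 1 member, IER2, at -0.52 (adjusted p = 0.0126). IER2 was also called without SF3B2 replicate 3, at -0.66 (adjusted p = 0.0411), and just missed the threshold when eGFP replicate 3 was left out as well (-0.71, adjusted p = 0.0501). The fit without SF3B2 replicate 3 alone called 1883 of all 23264 genes. The remaining 8 members had log2 fold changes from -0.19 (DUSP1) to 0.26 (EGR3). When scaled by library size alone, the median of all genes in this comparison shifted to -0.18, and FOS, FOSB, JUN, JUNB and EGR2 changed sign.

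The other genes of the route were counted by lists, beside 17.8% of all genes called higher and 18.5% lower with snaR-A. With snaR-A, 0 of 10 further AP-1 family genes were higher and 4 lower, among them MAFF, a small MAF protein (log2 -0.89 ± 0.12), and ATF3, a stress-induced repressor (log2 -0.35 ± 0.075). Of 25 further immediate early genes, 2 were higher and 9 lower, among them ID2, an inhibitor of bHLH factors (log2 -0.52 ± 0.057), and TRIB1, a pseudokinase gene (log2 -0.43 ± 0.041). Of 15 genes of ERK feedback, 2 were higher and 6 lower, including the ERK phosphatases DUSP4 (log2 -0.40 ± 0.083) and DUSP5 (log2 -0.39 ± 0.090). Among 22 upstream kinases and SRF or CREB factors, 3 were higher, with HRAS at 0.58 ± 0.061, and 4 lower, with the SRF partner ELK4 at -0.44 ± 0.063. Of the EGR relatives, NAB1, an EGR corepressor, was lower (log2 -0.30 ± 0.041) and the other gene tested was not called. The medians of these lists lay between -0.22 and -0.022, beside -0.0072 for all genes.

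In the MYC network, 2 of 11 genes were higher and 4 lower with snaR-A. MXD1, which competes with MYC for MAX, was higher with snaR-A (log2 0.47 ± 0.050), with SF3B2 (log2 0.91 ± 0.062) and, 2.01-fold, with eGFP (log2 1.01 ± 0.055). MYCL, a MYC paralogue, was lower with snaR-A (log2 -0.49 ± 0.10) and eGFP (log2 -0.75 ± 0.12). Of 10 known MYC targets tested, 3 were higher and 1 lower with snaR-A, 4 and 2 with eGFP, and 2 and 1 with SF3B2. Of all genes 17.8% were higher and 18.5% lower with snaR-A, 22.9% and 25.8% with eGFP, and 16.8% and 17.5% with SF3B2. The nucleolar protein gene NOP16 was higher in all 3, at 0.35 ± 0.054, 0.54 ± 0.043 and 0.44 ± 0.059, and CCND2, a cyclin gene, was lower in all 3, at -0.33 ± 0.045, -0.43 ± 0.052 and -0.22 ± 0.063, the last not called without SF3B2 replicate 3 (-0.18). Of 6 genes for proteins that bind AU-rich elements and control decay of such mRNAs, 1 was higher and 1 lower with snaR-A, namely KHSRP (log2 0.16 ± 0.044) and ZFP36L1 (log2 -0.33 ± 0.047).

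With eGFP, 7 of 16 ERK feedback genes were higher and 1 lower, beside 22.9% and 25.8% of all genes. SPRED3, an inhibitor of ERK signalling, was 1.99-fold higher (log2 0.99 ± 0.14), ETV5, an ETS factor downstream of ERK, reached 1.12 ± 0.33, and SPRY1 was lower (log2 -0.63 ± 0.081). Without eGFP replicate 3 the counts were 7 higher and 4 lower, beside 5077 and 5735 of all 23259 genes. In that fit ETV5 stood at 0.62 while SPRED3 stood at 0.96. FOSL1, the AP-1 subunit FRA1, had a log2 fold change of 1.22 ± 0.39 with eGFP replicate 3 and of 0.62 without it. Of the 25 further immediate early genes 4 were higher and 7 lower, with ID2 at -1.07 ± 0.061. With SF3B2 against scramble, 1 of 25 was higher and 7 lower, with KLF4 at -0.62 ± 0.12 and ID2 at -0.56 ± 0.064, and 2 of 16 ERK feedback genes were higher and 4 lower, with DUSP5 at -0.67 ± 0.13, beside 16.8% and 17.5% of all genes. Without SF3B2 replicate 3 these counts were 2 higher and 9 lower of 25, and 3 higher and 4 lower of 16. Of all 23169 genes in that fit 4357 were higher and 4639 lower. In this comparison 2 of 8 A549 markers were called higher, against 3 of 7 with eGFP, and their part in these counts was not tested.

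In A549 cells 1 member was called over the 4 comparisons, DUSP1, which was lower with SF3B2 than with eGFP. Without scramble replicate 3, which held 8773 CPM of SF3B2, SF3B2 against scramble called 4 members, beside 4825 of 21989 genes. FOS stood at 17.3, 16.9 and 19.7 CPM with scramble, 22.8, 16.97 and 20.5 with snaR-A, 20.9, 17.3 and 17.8 with eGFP and 22.9, 18.9 and 19.8 with SF3B2, and all 4 groups overlapped. EGR1 stood at 99.4, 89.1 and 80.9 CPM with scramble, 105, 102 and 105 with snaR-A, 82.4, 77.3 and 79.2 with eGFP and 94.6, 87.1 and 87.6 with SF3B2. The 3 snaR-A libraries were the highest for EGR1, and the eGFP libraries lay below the SF3B2 libraries. MYC stood at 151, 151 and 149 CPM with scramble, 138, 138 and 140.1 with snaR-A, 154, 157 and 154 with eGFP and 139, 143 and 133 with SF3B2, with eGFP highest and with snaR-A and SF3B2 below scramble, without overlap.

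In A549 FOSB stood at 18.2, 17.2 and 13.5 CPM with scramble, 16.03, 16.03 and 17.8 with snaR-A, 15.01, 13.6 and 14.4 with eGFP and 18.3, 15.4 and 17.6 with SF3B2. JUN stood at 91.1, 85.2 and 79.7 CPM with scramble, 85.5, 92.1 and 91.7 with snaR-A, 95.7, 96.7 and 85.8 with eGFP and 93.5, 95.6 and 86.9 with SF3B2. For these genes the scramble range overlapped that of each other plasmid. JUNB stood at 37.4, 38.1 and 41.5 CPM with scramble, 42.0, 40.2 and 44.6 with snaR-A, 40.9, 42.0 and 36.5 with eGFP and 43.3, 44.6 and 41.8 with SF3B2. IER2 stood at 40.7, 43.96 and 52.8 CPM with scramble, 53.2, 49.7 and 53.8 with snaR-A, 61.3, 59.8 and 44.9 with eGFP and 56.3, 55.02 and 54.8 with SF3B2. The SF3B2 libraries were above the scramble libraries for both, by a margin smaller than the range among the scramble libraries. EGR2 stood at 0.387, 0.521 and 0.351 CPM with scramble, 0.508, 0.696 and 0.678 with snaR-A, 0.341, 0.345 and 0.363 with eGFP and 0.424, 0.307 and 0.361 with SF3B2, with the highest values in snaR-A replicates 2 and 3. DUSP1 stood at 236, 217 and 202 CPM with scramble and 202, 194.5 and 196 with snaR-A, which overlapped.

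With snaR-A against scramble in A549, edgeR's quasi-likelihood test and exactTest and DESeq2 each called 0 of 10 members. At an unadjusted p under 0.05 there were 3, namely EGR1 (log2 0.21 ± 0.076), EGR2 (log2 0.58 ± 0.21) and MYC (log2 -0.12 ± 0.037), each with an adjusted p of 0.794. Among all 21662 genes tested, 1329 had an unadjusted p under 0.05, and 0.00923% were called higher and 0.00923% lower. The same 0 of 10 was found without scramble replicate 3 or without snaR-A replicate 3. These fits called 53 of 22172 and 1 of 22218 genes.

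With eGFP against scramble in A549 the 3 tools again called 0 of 10 members, and 1, EGR3, had an unadjusted p under 0.05 (log2 -0.80 ± 0.26, adjusted p = 0.455). EGR3 stood at 0.302, 0.246 and 0.239 CPM with scramble and 0.171, 0.109 and 0.173 with eGFP, without overlap, and per kilobase it was the lowest member in this line. Without scramble replicate 3 again 0 of 10 members were called, beside 298 of 22080 genes, and EGR3 was at -0.87 (adjusted p = 0.374). In the full comparison 1437 of all 21578 genes had an unadjusted p under 0.05, and 1.46% were called higher and 0.0324% lower. BATF2, an interferon-induced AP-1 family gene, was the 1 gene called among 10 further AP-1 genes, 10.3-fold higher with eGFP (log2 3.37 ± 0.15).

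With SF3B2 against scramble in A549 the 3 tools called 0 of 10, and 4 had an unadjusted p under 0.05, each with an adjusted p of 0.374. They were IER2 (log2 0.28 ± 0.090), JUNB (log2 0.16 ± 0.052), DUSP1 (log2 -0.18 ± 0.066) and MYC (log2 -0.11 ± 0.038). Of all 21461 genes 2801 had an unadjusted p under 0.05, and 0.214% were called higher and 0.0186% lower. Scramble replicate 3, which held 8773 CPM of SF3B2, changed this count. Without it IER2 (0.38, adjusted p = 0.00439) and JUNB (0.19, adjusted p = 0.0140) rose, DUSP1 (-0.25, adjusted p = 0.0205) and MYC (-0.13, adjusted p = 0.0414) fell, and 4825 of 21989 genes were called in all. BTG2, a p53-inducible gene that slows proliferation, and MXD1 were higher in the full comparison, at 0.43 ± 0.045 and 0.39 ± 0.050.

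**Figure D4:**
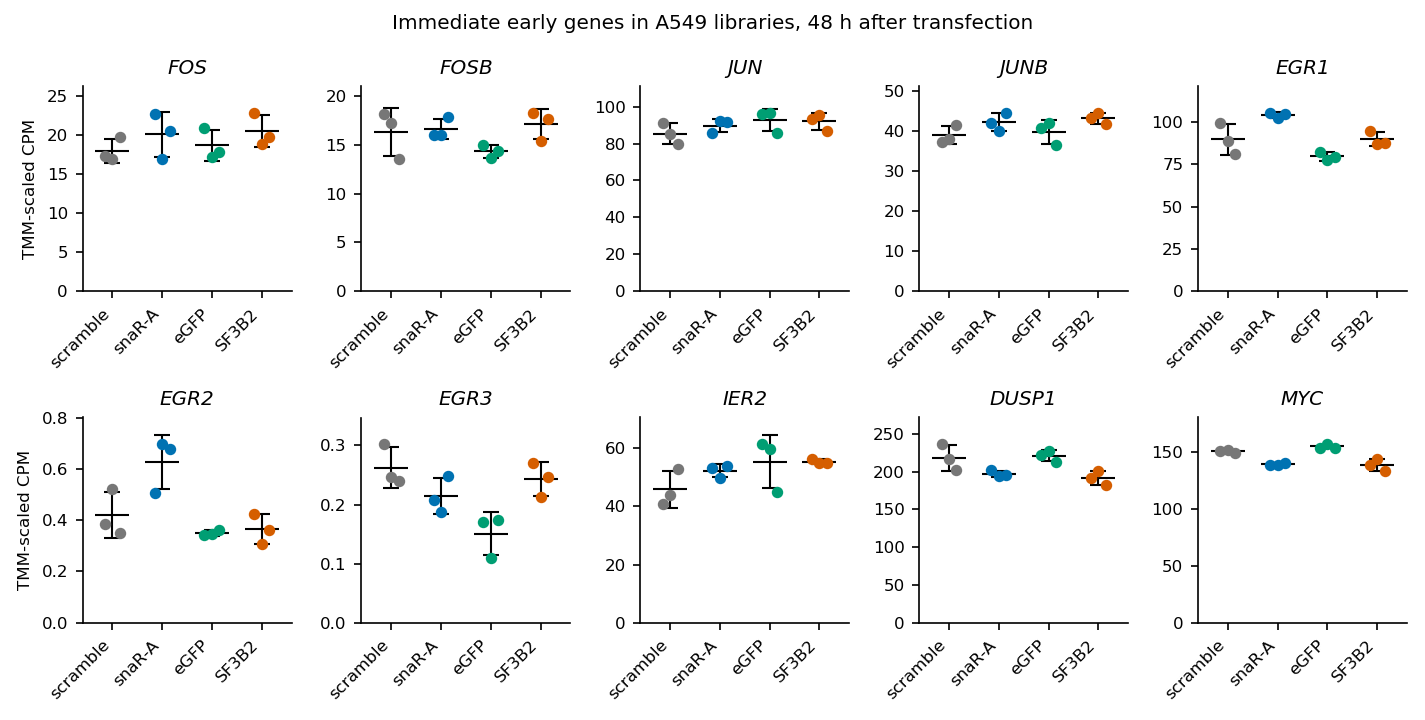
TMM-scaled CPM, on linear axes from 0 that differ between genes, of the 10 genes in the 12 A549 libraries, with 1 point per library coloured by plasmid and black bars for the mean ± SD of 3. For FOS, FOSB, JUN, JUNB, EGR2, IER2 and DUSP1 the groups that neighbour each other in mean level overlap, while the snaR-A libraries are highest for EGR1 and the eGFP libraries highest for MYC.

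SF3B2 against eGFP in A549 called 1 of 10 members, DUSP1, while 3.42% of all genes were higher and 3.60% lower. DUSP1 stood at 222, 228 and 213 CPM with eGFP and 192, 200.3 and 183 with SF3B2. The groups did not overlap, and DUSP1 was 1.14-fold lower with SF3B2 (log2 -0.19 ± 0.042, adjusted p = 0.0415), a call that held in 1 of 6 fits with a library left out. MYC (log2 -0.15 ± 0.035, adjusted p = 0.0532) and EGR1 (log2 0.19 ± 0.046, adjusted p = 0.0580) were just outside the threshold, and FOSB was further from it (log2 0.27 ± 0.077, adjusted p = 0.0929). The groups did not overlap for these genes, nor for EGR3, at 0.171, 0.109 and 0.173 CPM with eGFP and 0.270, 0.213 and 0.246 with SF3B2. How many of all genes showed no overlap here was not counted. At an unadjusted p under 0.05 there were 6 members, beside 4933 of all 21581 genes. Of 25 further immediate early genes 3 were higher, led by BTG2 (log2 0.52 ± 0.034), and 4 lower, with KLF6 at -0.42 ± 0.074 and the orphan receptor gene NR4A2 at -0.42 ± 0.042. BATF2 was 4.48-fold lower with SF3B2 than with eGFP (log2 -2.16 ± 0.17).

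Whether the plasmid effects differed between the lines was tested as an interaction of line and plasmid. For snaR-A against scramble, FOS, JUN, JUNB and MYC passed, all with a lower log2 fold change in HEK293T than in A549. So 4 of 10 members were lower and 0 higher, against 4.79% and 6.64% of all genes. The difference of log2 fold changes was -0.65 ± 0.096 for JUN (adjusted p = 0.00270) and -0.49 ± 0.064 for MYC (adjusted p = 0.00178). Without A549 snaR-A replicate 3, the library with the mixed labels, 3 of these 4 calls were made, all but FOS, and without A549 scramble replicate 3 there were 4 calls. Of all genes, 1064 were higher and 1203 lower of 25525 in the former fit, and 2037 and 2231 of 25503 in the latter. DUSP1, which was called in HEK293T, did not pass (difference -0.25 ± 0.094, adjusted p = 0.108). For eGFP against scramble, the log2 fold change was higher in HEK293T than in A549 for FOSB, EGR1 and EGR3. It was lower for FOS, JUN, JUNB and MYC. These were 3 and 4 of 10, against 10.8% and 15.6% of all genes. EGR3 was called in neither line alone and stood at 36, 23 and 32 counts in the A549 eGFP libraries. The difference was 0.93 ± 0.18 for FOSB (adjusted p = 0.00401) and -1.12 ± 0.089 for MYC (adjusted p = 3.06e-05). Leaving out HEK293T eGFP replicate 3 and A549 scramble replicate 3 together gave 9 calls, 4 higher and 5 lower, and an EGR1 difference of 0.80 in place of 1.03. The share of all genes called in that fit is not given here. For SF3B2 against eGFP, MYC alone passed (difference 0.34 ± 0.072, adjusted p = 0.0266), 1 higher and 0 lower of 10, against 3.52% and 2.58% of all genes.

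The lines differed for all members. Over the 12 libraries of each line FOS ranged from 1.93 to 4.13 CPM in HEK293T (median 2.84) and from 16.9 to 22.9 CPM in A549 (median 19.3). EGR1 ranged from 4.47 to 13.5 CPM (median 6.85) and from 77.3 to 105 CPM (median 88.3). DUSP1 ranged from 20.1 to 29.8 CPM (median 22.1) and from 183 to 236 CPM (median 202). None of these ranges overlapped, with A549 the higher in each. EGR3 ranged from 1.13 to 2.66 CPM in HEK293T and from 0.109 to 0.302 CPM in A549, and was the higher in HEK293T without overlap. MYC ranged from 61.5 to 140.1 CPM and from 133 to 157 CPM, and of the HEK293T libraries scramble replicates 1 and 2 reached the A549 range.

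In the contrast of the 4 HEK293T group means with the 4 A549 group means all 10 members were called, 3 higher and 7 lower in HEK293T, beside 43.0% and 42.8% of all genes. The counts were the same without HEK293T eGFP replicate 3 and A549 scramble replicate 3 together. EGR1 was 12.6-fold lower (log2 -3.65 ± 0.093, adjusted p = 1.45e-18), DUSP1 8.80-fold lower (log2 -3.14 ± 0.045) and FOS 6.88-fold lower (log2 -2.78 ± 0.072). FOSB (log2 -2.47 ± 0.066), JUNB (log2 -2.46 ± 0.041) and IER2 (log2 -1.92 ± 0.065) were lower as well. EGR3 was 7.51-fold higher in HEK293T (log2 2.91 ± 0.10), as were JUN (log2 1.17 ± 0.038) and, with overlapping libraries, EGR2 (log2 0.79 ± 0.13). MYC was lower (log2 -0.74 ± 0.025) with overlapping libraries, and in the 6 scramble libraries alone its log2 fold change was -0.11 (adjusted p = 0.114), so that 9 of 10 members were called there. The share of all genes called in those 6 libraries is not given here. Scaling by library size alone moved the median of all genes to 0.47 in this contrast and kept the 10 directions. The further immediate early genes had 3 of 25 higher and 22 lower in HEK293T (median log2 -2.23) and the ERK feedback genes 3 of 16 higher and 12 lower (median -2.60), beside a median of 0.0057 for all genes. Of 22 upstream kinases and SRF or CREB factors, 8 were higher and 11 lower in HEK293T (median log2 -0.15). EGFR, which feeds this pathway, was among the lower ones, at 20.8-fold.

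Per kilobase of canonical transcript, the scale on which genes can be compared, JUN led in HEK293T at 62.7 CPM per kb, followed by MYC at 24.2 and DUSP1 at 11.8. In A549 DUSP1 led at 103 CPM per kb, followed by MYC at 39.1, EGR1 at 29.0 and JUN at 27.6. EGR1 stood at 2.41 CPM per kb in HEK293T. EGR2 and EGR3 were the lowest pair in both lines, with 0.255 and 0.362 CPM per kb in HEK293T and 0.148 and 0.0482 in A549. The mRNA levels of JUN and FOS were thus unequal within each line. The other AP-1 family genes were not put on this scale, so the balance of AP-1 partners was not measured. JUN stood at 62.7 and FOS at 1.35 CPM per kb in HEK293T, and at 27.6 and 9.18 in A549.

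**Figure D5:**
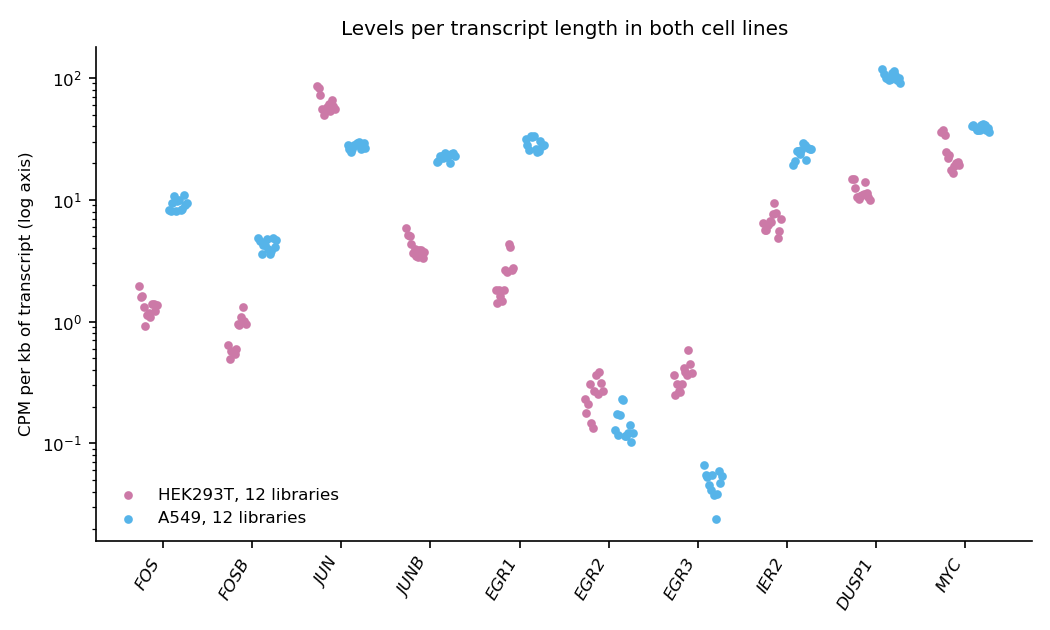
CPM per kilobase of canonical transcript, on a log axis, of each gene, with 1 point for each of 12 HEK293T and 12 A549 libraries. The highest gene is JUN in HEK293T, with a mean of 62.7 CPM per kb, and DUSP1 in A549, with a mean of 103 CPM per kb, and EGR3 and EGR2 are lowest in both lines.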

How the data were processed

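RNA-seq was measured in 24 libraries, 3 for each of 4 plasmids in 2 cell lines. Per the study's methods and labels, the authors trimmed reads with Trim Galore and quantified stranded poly(A) libraries with Salmon on hg38. The deposited values are estimated counts (expected counts per Ensembl gene), not scaled between libraries. The transcriptome release and the tool that summed transcripts are not given in the sources used here. Of the values, 51.0% were not whole, and all were rounded for testing. Symbols matched 54903 of 60236 IDs. Salmon divides reads shared by genes, which can move counts between overlapping or similar genes.

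Each comparison used R 4.3.3 and edgeR 4.0.16 (limma 3.58.1): filterByExpr, TMM scaling, quasi-likelihood F-test, Benjamini-Hochberg adjustment over all genes tested, with calls made where the adjusted p was below 0.05. For a member alone, the group means of CPM were set against all regroupings of the 6 libraries (exact permutation, two-sided). How many of all genes had groups without overlap was not counted for single comparisons. Alternatives were edgeR's exactTest, DESeq2 1.42.0, RLE scaling, scaling by library size alone, a fit of all 12 libraries of the line, filters of none or of 10 counts throughout, a replicate block, and fits that dropped a library. Leaving out 2 libraries together was chosen after seeing the data. Tables and figures were made with Python 3.11.15, pandas 2.3.3, numpy 2.4.6, scipy 1.17.1 and matplotlib 3.10.9. The steps were tested on simulated data.

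Groups follow the labels, with A549 snaR-A replicate 3 placed by its title. The members and gene lists were chosen with earlier results of these data known. Named were all members, SF3B2, and from each list up to 3 genes per comparison with the largest change among called genes with a mean of at least 1 log2 CPM. For FOS, EGR1, JUN and MYC the 3 genes most correlated over the libraries were named too. Some of the genes this rule names are not reported here. Same-numbered libraries did not deviate together (median residual correlation 0.024 over 18 pairs in HEK293T and -0.026 in A549), so the numbers were not taken as pairs. No library copied another of its own group, since replicate pairs varied by at least 4.77 times the Poisson variance. Libraries of different groups were not compared in this way. Library totals were 195186194 to 260878268 counts, and counting error is part of the spread between libraries.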

Additional observations from a re-analysis of the deposited data

Results flagged for a closer look

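A difference between HEK293T and A549 in the effect of the same plasmid passed the interaction test (edgeR's quasi-likelihood test, adjusted p under 0.05) for 12 pairs of gene and plasmid. Each value is the log2 fold change in HEK293T minus that in A549, with its SE. For snaR-A against scramble the difference was -0.75 ± 0.20 for FOS (adjusted p = 0.0329), -0.65 ± 0.096 for JUN, -0.51 ± 0.11 for JUNB (adjusted p = 0.0122) and -0.49 ± 0.064 for MYC. The FOS call held in 5 of 12 fits with a library left out.

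For eGFP against scramble it was -0.61 ± 0.18 for FOS (adjusted p = 0.0284), 0.93 ± 0.18 for FOSB, -0.66 ± 0.11 for JUN (adjusted p = 0.00185), -0.66 ± 0.12 for JUNB (adjusted p = 0.00281), 1.03 ± 0.26 for EGR1 (adjusted p = 0.0150), 1.08 ± 0.29 for EGR3 (adjusted p = 0.0181) and -1.12 ± 0.089 for MYC. FOS held in 6 of 12 fits with a library left out, and EGR3 was called in neither line alone. Without HEK293T eGFP replicate 3 and A549 scramble replicate 3 together, the differences were -0.81 for FOS and 0.80 for EGR1, and EGR2 (0.93, adjusted p = 0.0422) and DUSP1 (-0.39, adjusted p = 0.0311) were called as well.

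For SF3B2 against eGFP the difference was 0.34 ± 0.072 for MYC (adjusted p = 0.0266), a call that held in 4 of 12 fits with a library left out. Without HEK293T eGFP replicate 3 and HEK293T SF3B2 replicate 3 together it was 0.41 (adjusted p = 0.00396), and IER2 was called at -0.71 (adjusted p = 0.0314). The groups of 3 libraries are too small for a check of single outlying samples.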

How the results depend on the processing

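No called member changed direction under any alternative run, and every reversal was of a member that was not called, apart from SF3B2 itself below. With scaling by library size alone, the log2 values in HEK293T became 0.064 for EGR1 and 0.048 for EGR2 (snaR-A), and for SF3B2 against eGFP -0.045 for FOS, -0.046 for FOSB, -0.11 for JUN, -0.15 for JUNB and -0.069 for EGR2. In A549 they became -0.018 for JUN and -0.0081 for IER2 (SF3B2 against eGFP), and in its interaction -0.095 for JUN, -0.12 for EGR2 and -0.14 for DUSP1. Other reversals were FOSB with snaR-A in HEK293T (-0.0045 without a filter, -0.010 with 12 libraries in 1 fit), JUN in A549 (-0.0046 by DESeq2 and by RLE, -0.0034 without a filter), EGR1 with SF3B2 against scramble in A549 (-0.0080 without a filter), and FOS in the SF3B2 interaction (0.0031 by DESeq2, 0.0014 by RLE). Leaving out both HEK293T libraries of replicate 3 (eGFP and SF3B2) gave 0.37 for EGR1 in HEK293T and, in the interaction, 0.079 for FOS, 0.047 for FOSB and 0.20 for EGR1. Without HEK293T eGFP and A549 scramble replicates 3, the SF3B2 gene in the eGFP interaction was at -0.12.

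Outside the fits with a library left out, counts of members called moved by over 1.5 times in 3 comparisons. In HEK293T, SF3B2 against eGFP gave 0 in the analysis as reported and 1 by DESeq2 and with 12 libraries in 1 fit. In A549 it gave 3 by exactTest, 4 by DESeq2, 3 with at least 10 counts in every library, and 0 with scaling by library size or without a filter, in place of 1. Its interaction gave 0 with scaling by library size and without a filter, and 2 without both doubted libraries, in place of 1. With the replicate block, SF3B2 against eGFP called 0 members in A549 and 0 in the interaction. The block gave 8 in place of 7 for SF3B2 against scramble in HEK293T and 7 in place of 8 for eGFP. Numbers did not pair the libraries.

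With 1 library left out, the members called ranged from 4 (without scramble replicate 1) to 8 for SF3B2 against scramble in HEK293T, from 0 to 1 for SF3B2 against eGFP there, from 0 to 4 in A549 for both SF3B2 comparisons, and from 0 to 2 in the SF3B2 interaction. The number of all genes called moved in such fits as well. Without A549 scramble replicate 3 it was 4825 in place of 50 for SF3B2 against scramble in A549. Uncalled members whose sign changed had these log2 ranges. With snaR-A in HEK293T: FOSB -0.092 to 0.094, EGR1 -0.15 to 0.026, EGR2 -0.53 to 0.15, EGR3 -0.27 to 0.0030. SF3B2 against eGFP in HEK293T: FOSB -0.037 to 0.23, JUN -0.011 to 0.12, JUNB -0.035 to 0.078, EGR1 -0.25 to 0.26, EGR2 -0.042 to 0.28. SF3B2 against scramble in HEK293T: IER2 -0.19 to 0.089. In A549: with snaR-A FOSB -0.094 to 0.12, with eGFP FOS -0.038 to 0.12, JUNB -0.012 to 0.080 and DUSP1 -0.042 to 0.082. SF3B2 against eGFP in A549: JUN -0.046 to 0.036, EGR2 -0.052 to 0.18, IER2 -0.11 to 0.092. SF3B2 against scramble in A549: FOSB -0.056 to 0.17, EGR1 -0.077 to 0.090, EGR3 -0.19 to 0.011. Interactions: snaR-A FOSB -0.15 to 0.079, EGR3 -0.0018 to 0.26 and IER2 -0.18 to 0.016, SF3B2 FOS -0.098 to 0.099, EGR1 -0.41 to 0.10, EGR2 -0.086 to 0.24 and DUSP1 -0.033 to 0.15, and the SF3B2 gene with eGFP -0.085 to 3.60.

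Over all genes, DESeq2 called 2092 in place of 39 for SF3B2 against eGFP in HEK293T (126 with scaling by library size), 2863 in place of 1516 for the same in A549, 40 in place of 4 for snaR-A in A549, 532 in place of 322 for eGFP in A549, and 380 in place of 50 for SF3B2 against scramble in A549 (27 by RLE, 30 by library size). It called 4435 in place of 2831 in the snaR-A interaction and 4052 in place of 1507 in the SF3B2 interaction. With scaling by library size, the share of called genes that were higher moved from 49.0% to 72.9% (snaR-A) and from 47.0% to 61.6% (eGFP) in HEK293T, from 23.1% to 7.94% for SF3B2 against eGFP there (51.8% by DESeq2), from 48.7% to 36.2% for it in A549, from 50% to 66.7% for snaR-A in A549, from 58.1% to 68.1% (42.3% by DESeq2, 45% by RLE), 57.7% to 24% and 40.9% to 62.0% in the snaR-A, SF3B2 and eGFP interactions, and from 50.1% to 66.4% between the lines. For SF3B2 against scramble in A549, DESeq2 moved it from 92% to 68.9%. The median of all genes moved to -0.19 in the SF3B2 interaction. The cause was not tested. Depth limits EGR2 and EGR3 most, the members with the lowest counts.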

Other observations

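Within HEK293T, FOSB and EGR1 varied together over the 12 libraries (Pearson's r = 0.96 of log2 CPM), as did JUNB and MYC (r = 0.93), FOSB and EGR3 (r = 0.91) and FOS and JUN (r = 0.83), whereas FOSB and MYC ran in opposite directions (r = -0.72). In A549 the highest values were those of DUSP1 and MYC (r = 0.89), JUNB and IER2 (r = 0.78) and EGR1 and EGR2 (r = 0.76). These are descriptions over libraries that share plasmids, handling and scaling.

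Among 12068 other genes with a mean of at least 1 log2 CPM, centred within each line and compared over the 24 libraries, the level of EGR1 was most like that of FOSB (r = 0.94), HOXA3 (r = 0.89) and ZBTB21 (r = 0.88). MYC was most like IL6R (r = 0.98), C4orf3 (r = 0.98) and INSIG1 (r = 0.98). JUN was closest to OTUD1 (r = 0.89) and EIF4A2 (r = 0.89), and FOS to GADD45B (r = 0.83), RPL17-C18orf32 (r = 0.79) and FN1 (r = 0.79). Within A549 alone these values were lower, from 0.43 to 0.78.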
